A study of Drosophila melanogaster with 25 samples.

Results

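Glial marker genes are transcripts by which the non-neuronal support cells of the fly brain are commonly recognised. The 10 genes examined here were repo, loco, Eaat1, Gs2, nrv2, alrm, wrapper, Gat, moody and Gli, named by their FlyBase symbols and looked up by FlyBase identifier among the 16060 genes of the deposited table. Of the 10 genes, 9 had a row of values, and 8 of them were above 0 and passed the minimum for testing (at least 1 RPKM in at least 5 libraries), as did 7985 genes in all. RPKM are reads divided by the gene's length in kilobases and by the size of the library. The gene alrm, an astrocyte transcript encoding a leucine-rich repeat protein, was not analysed here, and moody, a receptor gene of the blood-brain barrier, was listed at 0 in each of the 25 libraries. The libraries were made from brain RNA of Drosophila melanogaster in 4 groups: PDE females (n = 7), control females (n = 5), PDE males (n = 6) and control males (n = 7), where PDE stands for long-term photodynamic exposure. Such an exposure makes light act on a photosensitiser, a compound that then generates reactive oxygen species, and the series uses it as a model of oxidative stress. Strain, age, compound, light and duration are not stated in the labels.

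Glia of the fly brain fall into classes with separate tasks. Astrocyte-like glia reach into the synaptic neuropil and clear glutamate and GABA, cortex glia wrap the cell bodies of neurons, and ensheathing glia bound the neuropil. Perineurial and subperineurial glia form the blood-brain barrier, which is sealed by septate junctions. Most of these cells carry the homeodomain transcription factor Repo. The RNA came from whole brain tissue, so fewer glial cells and less of a transcript per glial cell cannot be told apart.

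Library totals, recovered from the steps between low RPKM values, ran from 21.6 to 48.3 M reads (M, 1e6 reads) after female PDE and from 8.88 to 26.1 M in control females. They ran from 11.2 to 28.3 M after male PDE and from 27.8 to 58.7 M in control males. Neuronal transcripts were abundant in each library, with a summed level of 13 marker genes between 805 and 962 RPKM and 12 of the 13 at a median of at least 1 RPKM. The pan-neuronal gene elav was an exception, at 0 to 0.0466 RPKM. Photoreceptor transcripts varied far more, since the summed level of 14 retinal genes was 5378 to 9622 RPKM in 5 libraries and 81.7 to 2150 RPKM in the other 20. These 5 retina-rich libraries are female control 4, male PDE 3 and male controls 4, 5 and 6, and results without them are given below. Whether each library holds 1 fly or a pool is not stated in the labels, and p-values measure the spread between these libraries only.

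The barrier gene moody was at 0 in all 25 libraries, and its position in the genome sets it apart from the other members. It encodes a G protein-coupled receptor of subperineurial glia. In the Ensembl BDGP6.54 annotation it spans X:2044292-2050120 on the minus strand, and its whole span of 5829 bases lies within CG4313 on the opposite strand. CG4313 itself averaged 2.23 ± 0.0836 RPKM after female PDE (SD, n = 7) and 2.12 ± 0.202 RPKM in control females (n = 5). It averaged 2.83 ± 0.252 RPKM after male PDE (n = 6) and 2.72 ± 0.0925 RPKM in control males (n = 7). Among the protein-coding genes of the table, 970 of the 1076 that lie entirely within a gene on the opposite strand were at 0 in all libraries (90.1%). The share was 1.04% of the 4607 genes that overlap another gene in part, 3.53% of the 7303 with no overlap, and 0 of the 8 inside a gene on the same strand. In the 15 lists of glial and other cell type genes used here, 117 genes had values, and 4 of them lay entirely within a gene on the opposite strand. All 4 were at 0 in each library, and no other list gene was. Beside moody they were the sugar transporter gene Tret1-1 of the barrier, the septate junction gene bou and the photoreceptor arrestin gene Arr2. For moody there is thus no value to compare between groups. The gene alrm (3R:25381065-25382781, minus strand) also lies wholly inside another gene, Fur1, on the same strand.

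**Figure D1:**
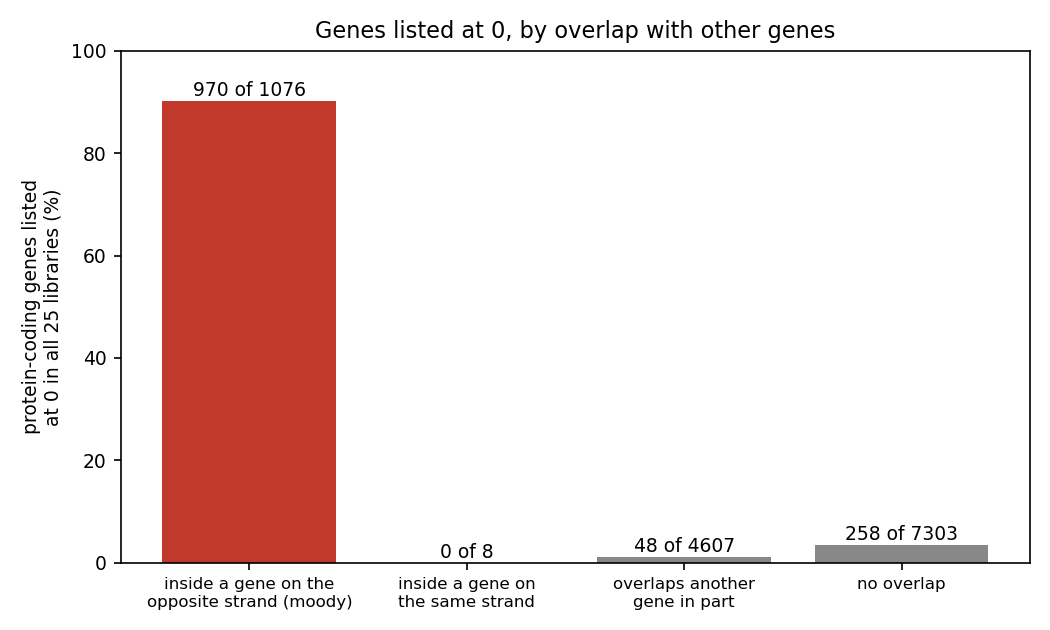
Share of protein-coding genes listed at 0 RPKM in all 25 libraries (y axis, percent), by how the gene's span overlaps other annotated genes (x axis), with counts above the bars. The class that holds moody has 970 of 1076 genes at 0, against 258 of 7303 genes with no overlap.

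The 8 measured members covered a wide range of levels, with the enzymes and transporters of astrocyte-like glia at the top and the junction gene Gli at the bottom. Their deposited RPKM were computed over the genomic span, introns included, so the order below was also examined per base of exon. Gs2, encoding the glial glutamine synthetase, had a median of 455 RPKM over the 25 libraries (350.5 to 581) and stood above 99.7% of the tested genes. The sodium pump subunit gene nrv2 followed at 276 RPKM (227 to 379), and Gs2 was above nrv2 in all 25 libraries. Gat, the GABA transporter gene, had a median of 116 RPKM (87.5 to 152), and the glutamate transporter gene Eaat1 had 102 RPKM (79.9 to 135).

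These transporters were close in level, and their order depended on the length used. Gat was above Eaat1 in 23 of 25 libraries per base of genomic span, whereas Eaat1 (median 272 RPKM over exons) was above Gat (226 RPKM over exons) in 23 of 25 libraries per base of exon. The cortex glia gene wrapper had a median of 71.1 RPKM (24.9 to 95.1), and repo had 28.1 RPKM (23.2 to 35.1). The lowest 2 of the measured members were loco at 2.83 RPKM (1.65 to 4.38) and Gli at 1.02 RPKM (0.230 to 2.02). Apart from the exchange of Gat and Eaat1 the order was the same over exons, where Gs2 had 1501 RPKM, nrv2 702, wrapper 109, repo 32.0, loco 7.15 and Gli 1.55. The steadiest gene across libraries was repo, with a coefficient of variation of 11.7%, and the most variable were Gli (44.3%), loco (23.9%) and wrapper (21.8%). Gli also rested on the fewest reads, 16 to 447 per library, whereas Gs2 had 25940 to 208905.

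The pan-glial genes come first among the comparisons of PDE with control. Changes are differences of mean log2(RPKM + 1), PDE minus control, from a limma model over all 25 libraries, with moderated standard errors and p-values adjusted by the Benjamini-Hochberg method over 7985 genes. The pseudocount of 1 shrinks changes of genes near or below 1 RPKM.

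The transcription factor gene repo (3R:18236192-18239602, plus strand) directs glial differentiation, and 183 bases of its span (5.37%) are shared with CG7156 on the opposite strand. It ranged from 25.5 to 35.1 RPKM after female PDE with a median of 29.6, against 23.2, 29.96, 25.4, 32.1 and 33.2 RPKM in control females. In males it ranged from 23.9 to 33.0 RPKM after PDE (median 28.0) and from 26.0 to 31.3 RPKM in controls (median 27.5). The groups overlapped over most of their range in both sexes. The change of repo averaged over the sexes was 0.05 on the log2 scale (SE 0.06, 95% interval -0.08 to 0.19, adjusted p = 0.999).

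The other pan-glial gene, loco (3R:22619968-22639387, minus strand), encodes a regulator of G protein signalling that acts in glial development and downstream of Moody at the barrier. Its levels after female PDE were 2.44 to 4.38 RPKM with a median of 3.31, against 1.65, 2.62, 1.92, 2.95 and 4.15 RPKM in control females. After male PDE they were 2.15 to 3.52 RPKM (median 2.98), against 2.27 to 3.38 RPKM in control males (median 2.73). In females 6 of 7 PDE libraries were above the control median, yet control female 5 lay above all but 1 of the PDE libraries. In males 2 of 6 PDE libraries were above each control and 2 were below each control. The change of loco was 0.06 in males (SE 0.13, adjusted p = 0.9999) and 0.31 in females (SE 0.14, unadjusted p = 0.0324, adjusted p = 0.990). Leaving out 1 library moved these to between 0.02 and 0.12 in males and between 0.21 (without control female 1) and 0.45 (without control female 5) in females, and array weights gave 0.13 in females. The difference of these changes, males minus females, was -0.25 (SE 0.19, 95% interval -0.64 to 0.14, adjusted p = 0.999). With pseudocounts of 0.1 and 5 the female change of loco was 0.42 and 0.15. The span of loco shares 1600 bases (8.24%) with an antisense RNA gene and a long noncoding RNA gene on the opposite strand. Their reads cannot be told apart from its own without strand information, and how the shared bases were counted is not given.

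**Figure D2:**
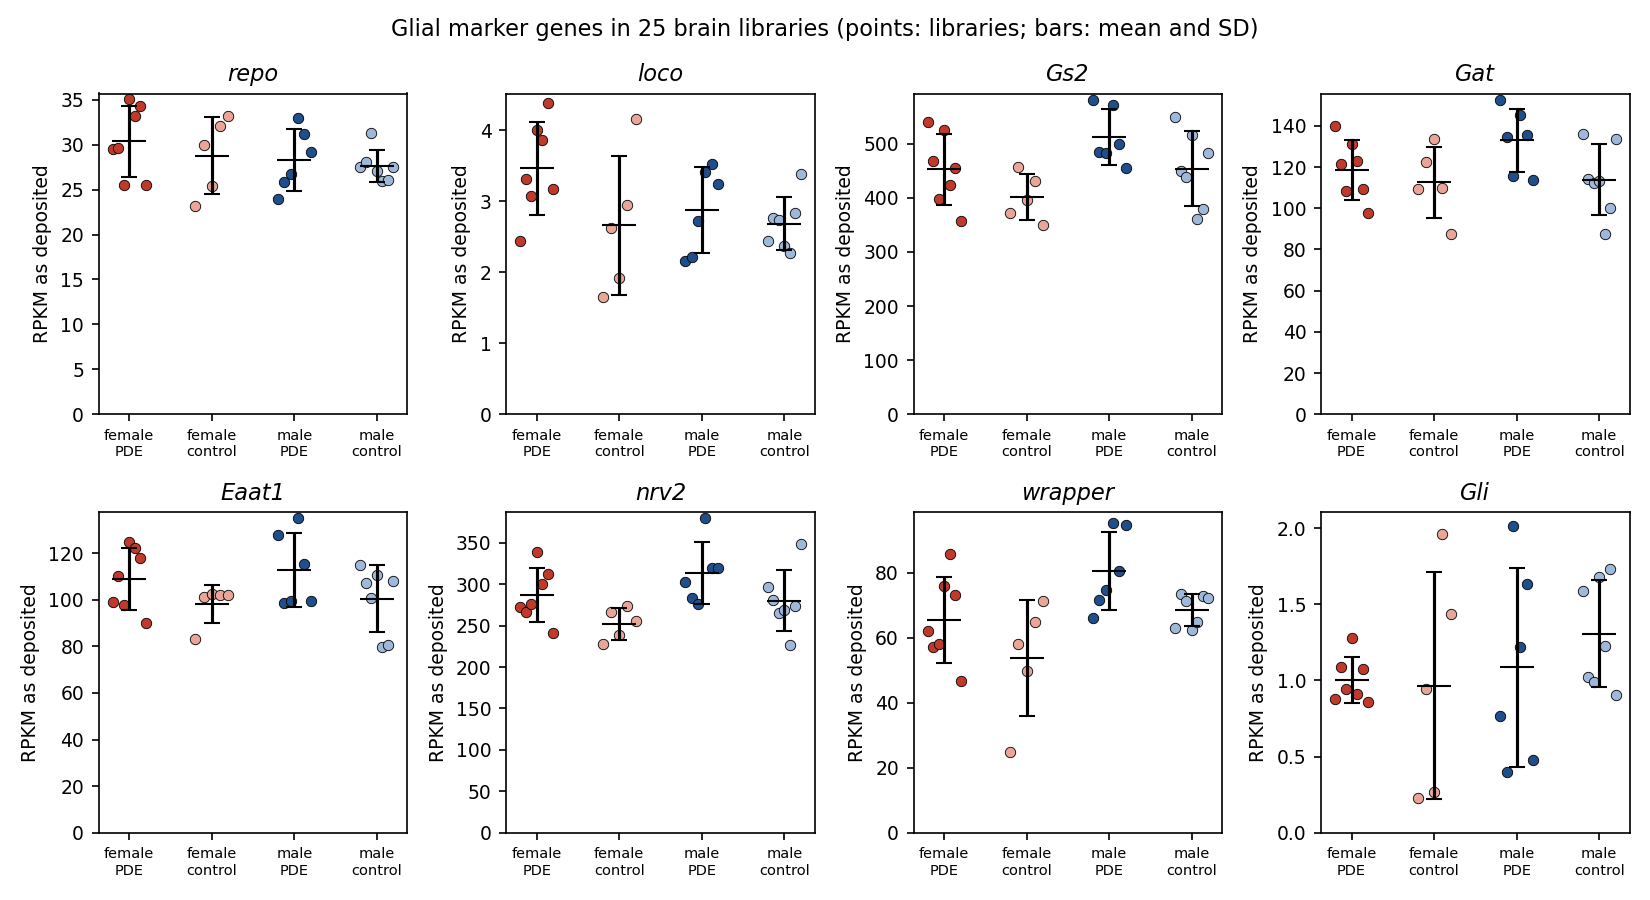
RPKM (y axis, linear from 0) of the 8 measured glial marker genes in each of the 25 libraries, by sex and treatment (x axis); points are libraries, and bars give the mean and SD. PDE and control libraries overlap in each panel, and control female 1 is the low point of wrapper at 24.9 RPKM.

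Genes of transmitter clearance by astrocyte-like glia had higher means after PDE in both sexes, by amounts that did not pass the test. Gs2 (X:11422832-11430197, plus strand) makes glutamine from the glutamate that glia take up. Its levels were 357 to 540 RPKM after female PDE (median 455), against 372, 457, 396, 431 and 350.5 RPKM in control females. Male PDE libraries had 454 to 581 RPKM (median 491), against 361 to 549 RPKM in control males (median 449). Each of the 6 male PDE libraries was above the male control median, but only 2 of them were above each male control. The average change of Gs2 was 0.17 (SE 0.07, 1.13-fold, 95% interval 1.01 to 1.26, unadjusted p = 0.0288, adjusted p = 0.647).

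Eaat1 (2L:9333567-9341925, plus strand) encodes the transporter that takes glutamate into glia. Its levels were 90.0 to 125 RPKM after female PDE (median 110), against 83.4, 101, 102, 102 and 102 RPKM in control females. In PDE males they were 98.7 to 135 RPKM (median 107.4), against 79.9 to 115.1 RPKM in control males (median 107.4). Control females other than female 1 were nearly equal, and the PDE libraries lay on both sides of them. The average change of Eaat1 was 0.15 (SE 0.07, unadjusted p = 0.0441, adjusted p = 0.751).

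Gat (4:629691-635350, plus strand) encodes the transporter that removes GABA from the neuropil. Its levels were 97.6 to 139.8 RPKM after female PDE (median 122), against 109, 123, 133, 110.0 and 87.7 RPKM in control females. After male PDE they were 114 to 152 RPKM (median 135), against 87.5 to 136 RPKM in control males (median 113). All 6 male PDE libraries were above the male control median, whereas the female groups overlapped widely. The change of Gat was 0.23 in males (SE 0.11, unadjusted p = 0.0420, adjusted p = 0.9999) and 0.08 in females (SE 0.11, adjusted p = 0.999), with a difference of 0.15 between the sexes (SE 0.15, 95% interval -0.17 to 0.47, adjusted p = 0.999). Without the 5 retina-rich libraries the male change of Gat was 0.13.

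The sodium pump gene nrv2 had the smallest p of the members for the change averaged over the sexes. It encodes a beta subunit of the Na,K-ATPase, the ion pump that also belongs to septate junctions, and lies at 2L:6789770-6798862 on the minus strand. Its levels were 241 to 338 RPKM after female PDE (median 276), against 227, 266, 239, 273 and 256 RPKM in control females. In PDE males its levels were 276 to 379 RPKM (median 311), against 227 to 349 RPKM in control males (median 273). In each sex 6 PDE libraries were above the control median, and the groups still overlapped. The average change of nrv2 was 0.17 (SE 0.06, 1.13-fold, 95% interval 1.03 to 1.23, unadjusted p = 0.0125, adjusted p = 0.484).

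The cortex glia gene wrapper had the largest log2(RPKM + 1) change of the members in females and the average, with a wide error. It encodes an immunoglobulin-domain surface protein by which glia hold on to neurons (2R:22379637-22382675, plus strand). Its levels were 46.7 to 85.5 RPKM after female PDE (median 62.0), against 24.9, 58.1, 49.6, 64.7 and 71.1 RPKM in control females. PDE males had 66.1 to 95.1 RPKM (median 77.6), against 62.4 to 73.2 RPKM in control males (median 71.1). In males 4 of 6 PDE libraries were above each control, whereas in females the lowest library of all was control female 1. The average change of wrapper was 0.28 (SE 0.12, 1.21-fold, 95% interval 1.02 to 1.45, unadjusted p = 0.0336, adjusted p = 0.689). It was 0.34 in females (SE 0.18, adjusted p = 0.999) and 0.22 in males (SE 0.17, adjusted p = 0.9999), where Gat had 0.23. In females loco was close at 0.31, and the change of loco was 0.42 with a pseudocount of 0.1. Without control female 1 the change of wrapper was 0.09 in females, where loco had 0.21. In the average wrapper then had 0.15, and Gs2 had 0.16.

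Gli had no common direction in the sexes. It encodes gliotactin, a cholinesterase-like protein of junctions where 3 barrier cells meet, and lies at 2L:15756002-15762758 on the minus strand. Its levels were 0.858 to 1.28 RPKM after female PDE (median 0.947), against 0.230, 0.942, 0.267, 1.96 and 1.43 RPKM in control females. In PDE males they were 0.398 to 2.02 RPKM (median 0.993), against 0.907 to 1.73 RPKM in control males (median 1.22). The female PDE libraries all lay within the range of the control females, and male PDE libraries held both the highest and the lowest male value. The change of Gli was 0.11 in females (SE 0.20, adjusted p = 0.999) and -0.19 in males (SE 0.19, adjusted p = 0.9999). Its size depended on the pseudocount, with 0.40 and -0.41 at a pseudocount of 0.1 and 0.02 and -0.06 at 5. With voom the changes were 0.27 and -0.41.

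Across the members, 0 of 8 were called at an adjusted p under 0.05, whether in females, males or the average. Of all 7985 genes, limma called 0.0751% in females and 0.175% in males, and 0.413% for the average. At an unadjusted p under 0.05 there was 1 member in females (loco), 1 in males (Gat) and 4 in the average (nrv2, Gs2, wrapper and Eaat1), beside 4.80%, 3.99% and 6.41% of all genes in these comparisons. These numbers were also 1, 1 and 4 with voom on recovered reads, which likewise called 0 members after PDE. Changes were positive for 8 of 8 members in females, beside 56.5% of all genes. They were positive for 7 of 8 in males (58.7% of all genes) and for 7 of 8 in the average (60.0%). With array weights 6 of 8 were positive in females. The median average change over the members was 0.16, beside 0.01 over all genes. The members are not independent of each other, as the correlations given further on show. For no member were PDE and control libraries of a sex fully separated, which held for 0.313% of all genes in females and 0.363% in males. The change differed between the sexes for 0 of 8 members, as for 0.0% of all genes, and 0 members had an unadjusted p under 0.05 for that difference by limma or voom.

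Control female 1, PDE female 7 and control male 5 were each the lowest of their group for 6 of the 8 members. Without control female 1 the median change of the members in females was 0.09 in place of 0.15, and 0 members in females and 1 in the average had an unadjusted p under 0.05. Without PDE female 7 the female median was 0.20, with 4 members in females and 5 in the average at an unadjusted p under 0.05. Without control male 5 the male median was 0.11 in place of 0.17, with 0 such members in males and 2 in the average. Without the 5 retina-rich libraries the median was 0.20 in females (8 of 8 positive, 2 such members), 0.10 in males (6 of 8 positive, 0 such members) and 0.14 in the average (8 of 8 positive, 2 such members). In males Gat then had 0.13 in place of 0.23, and Eaat1 0.08 in place of 0.17. Likewise Gs2 had 0.11 in place of 0.18, nrv2 0.11 in place of 0.16 and loco 0.02 in place of 0.06. In females Gli had 0.28 in place of 0.11, and repo 0.12 in place of 0.08.

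**Figure D3:**
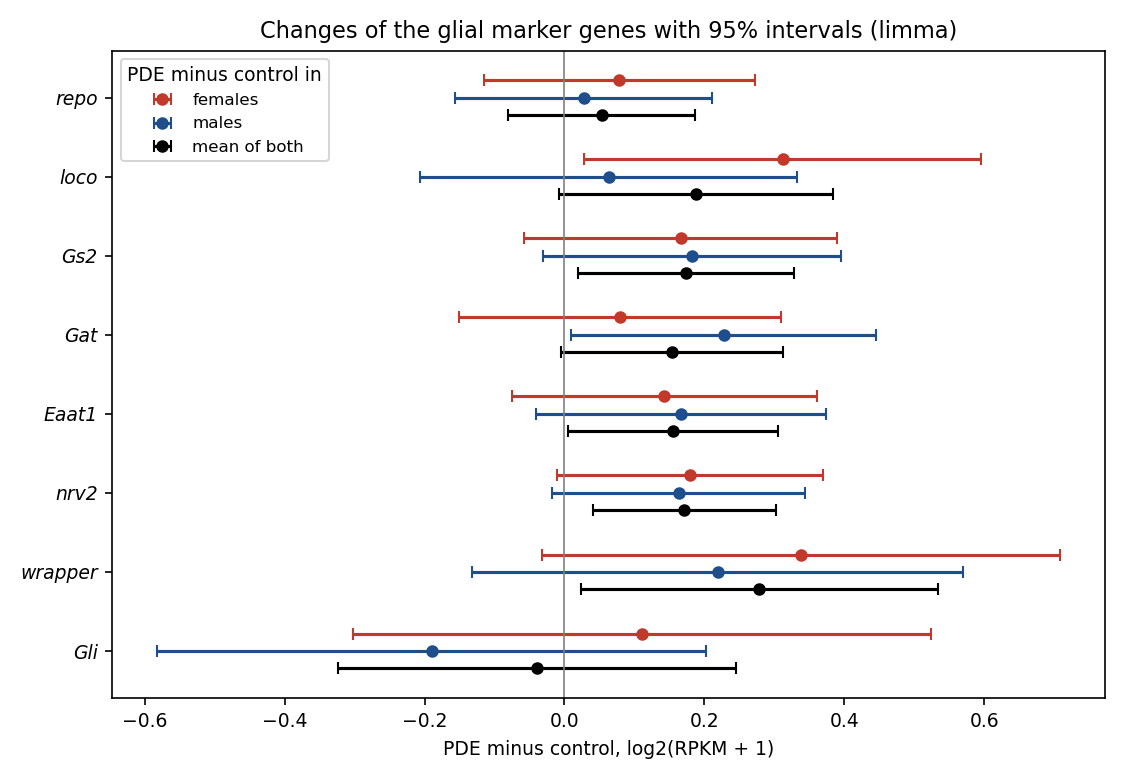
Change of the 8 measured glial marker genes on the log2(RPKM + 1) scale (x axis, PDE minus control) with 95% intervals from limma, in females, in males and as the mean of both; each gene has a row on the y axis. Most points lie between 0 and 0.4, the average of Gli lies at -0.04, and no change passed the adjusted test.

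Between the sexes, wrapper was the member with the largest difference. The contrast sets males against females, averaged over PDE and control. wrapper averaged 80.4 ± 12.1 RPKM in PDE males (SD, n = 6) and 65.4 ± 13.3 RPKM in PDE females (n = 7). In controls it averaged 68.5 ± 4.87 RPKM in males (n = 7) and 53.7 ± 18.0 RPKM in females (n = 5). The difference was 0.37 on the log2 scale (SE 0.12, 1.29-fold, 95% interval 1.08 to 1.54), with an adjusted p of 0.0544. Thus 0 of 8 members were called in this contrast, in which 12.1% of all genes were, while 3 had an unadjusted p under 0.05 (wrapper, Gs2 and nrv2), as did 24.2% of all genes.

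The call on wrapper turned on the scaling. Its adjusted p was 0.0370 with median-ratio size factors, 0.0396 with quantile normalization and 0.0484 with voom, which had 3 members at an unadjusted p under 0.05. Leaving out single libraries moved it as well, to 0.0234 without control female 5, 0.0324 without control female 4, 0.0373 without PDE female 5 and 0.0472 without PDE male 1. Only the leave-outs with an adjusted p under 0.05 are listed here. The difference of wrapper itself lay between 0.24 and 0.43 when 1 library was left out. Without control female 1, its lowest library, 0 members were called. Gs2 was 0.18 higher in males (SE 0.07, adjusted p = 0.135) and nrv2 0.14 higher (SE 0.06, adjusted p = 0.189), neither of which passed. The differences of repo (-0.07, SE 0.06, adjusted p = 0.554) and loco (-0.08, SE 0.09, adjusted p = 0.664) pointed toward females and did not pass either.

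Within groups the members varied together from library to library. The highest r lay inside 2 trios joined by Eaat1 and nrv2, but nrv2 reached members of both at r above the lowest inside a trio. Values were centred on their group mean, and Pearson's r and Spearman's rho were computed for the 28 pairs of measured members over 25 libraries, with 100000 within-group permutations. The median r was 0.49, with a range of -0.25 to 0.83, and 24 of 28 pairs were positive. Over all pairs of the 7985 genes the median was 0.10 and 60.5% were positive. After adjustment over the 28 pairs, 14 had an adjusted p under 0.05 for r, and 12 for both r and rho.

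One trio was repo, loco and wrapper. The pair repo and wrapper had r = 0.81 (rho = 0.82, permutation p = 1.0e-05, which is the smallest that the permutations can give, adjusted p = 0.00028), and 0.82 without the 2 libraries farthest from the median. The pair repo and loco had r = 0.79 (rho = 0.81, permutation p = 0.00011, adjusted p = 0.00062) and 0.77 without those libraries. loco and wrapper had r = 0.76 (rho = 0.77, permutation p = 0.00046, adjusted p = 0.00143), and 0.67 without them.

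The transmitter genes Gs2, Gat and Eaat1 formed the other trio. Gs2 and Gat had r = 0.83 (rho = 0.80, permutation p = 2.0e-05, adjusted p = 0.00028), and 0.77 without the 2 farthest libraries. Eaat1 and Gs2 had r = 0.73 (rho = 0.71, permutation p = 0.00024, adjusted p = 0.00108), and Eaat1 and Gat had r = 0.62 (rho = 0.65, permutation p = 0.0023, adjusted p = 0.00644). Without the farthest libraries these were 0.64 and 0.52.

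Of the pairs that join these 2 trios, those with Gat were low or negative, with r = -0.02 for wrapper and Gat (permutation p = 0.946, rho = -0.01), 0.05 for repo and Gat (permutation p = 0.828, rho = 0.11) and -0.25 for loco and Gat (permutation p = 0.270, rho = -0.14). Without the 2 farthest libraries these were -0.23, -0.01 and -0.11. Those with Gs2 were 0.30 for repo, 0.14 for wrapper and -0.07 for loco (permutation p = 0.148, 0.502 and 0.740, rho = 0.34, 0.07 and -0.01). Eaat1 in contrast went with repo and wrapper too, at r = 0.56 to repo (rho = 0.54, permutation p = 0.00345, adjusted p = 0.00878), 0.44 to wrapper (rho = 0.37, permutation p = 0.011, adjusted p = 0.0237), whereas r = 0.39 to loco did not pass (rho = 0.34, permutation p = 0.0444, adjusted p = 0.0777). Without the farthest libraries these were 0.48, 0.52 and 0.33. The ion pump gene nrv2 likewise went with both, with r = 0.64 to repo (rho = 0.72, permutation p = 0.00027, adjusted p = 0.00108) and r = 0.73 to Eaat1 (rho = 0.71, permutation p = 0.0001, adjusted p = 0.00062), and 0.65 and 0.72 without the farthest libraries. Its r was also 0.62 to loco, 0.57 to wrapper, 0.56 to Gs2 and 0.49 to Gat (permutation, adjusted p = 0.00143, 0.00062, 0.0188 and 0.0372). By rho, nrv2 and Gat did not pass (adjusted p = 0.11). Without the 5 retina-rich libraries Gs2 and Gat had r = 0.83 and repo and wrapper 0.82, while Eaat1 and Gs2 had 0.59 and Eaat1 and Gat 0.46. Eaat1 then had 0.57 to repo and 0.56 to wrapper, above its r to Gat. Over all pairs the median r was 0.52 without those libraries and 0.46 with median-ratio size factors.

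**Figure D4:**
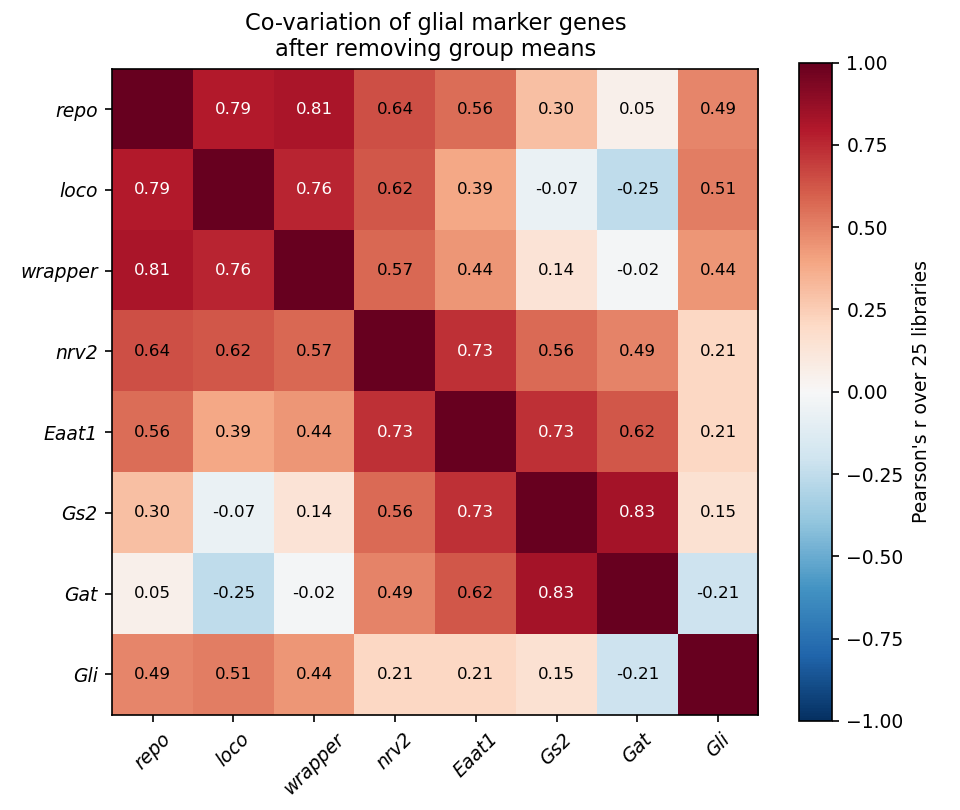
Pearson's r of log2(RPKM + 1), centred on the group means, for each pair of the 8 measured glial marker genes over 25 libraries (both axes list the genes, and colour and number give r). repo, loco and wrapper form one group of high values (0.76 to 0.81), and Eaat1, Gs2 and Gat another (0.62 to 0.83). Between them the values run from -0.25 for loco and Gat to 0.56 for repo and Eaat1.

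Transcripts of other cell types moved with some members. Of 48 relations of a member to a library measure, 9 had an adjusted p under 0.05 for r, none of them to the sums of neuronal or fat body genes or to the library total. Gli followed the retinal genes, with r = 0.70 to the log2 of their summed level (rho = 0.70, permutation p = 0.00011, adjusted p = 0.00106). It was 0.65 without the 2 farthest libraries and 0.48 without the 5 retina-rich libraries. Over all libraries r of Gli to the other members ran from -0.21 (Gat) to 0.51 (loco), at adjusted p-values of 0.0777 or more by permutation. Without the 5 retina-rich libraries r ran from -0.08 (Gat) to 0.66 (loco), with 0.63 to repo and 0.54 to Eaat1. For the other 7 members r to the retinal sum lay between -0.18 and 0.09, at adjusted p-values of 0.656 or more. The retinal sum was 98.2 to 1973 RPKM after female PDE and 104 to 9387 RPKM in control females, 139 to 8757 RPKM after male PDE and 81.7 to 9622 RPKM in control males. Of the 14 retinal genes only Arr2 was at 0. The part of retinal tissue in the values of Gli was not tested.

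**Figure D5:**
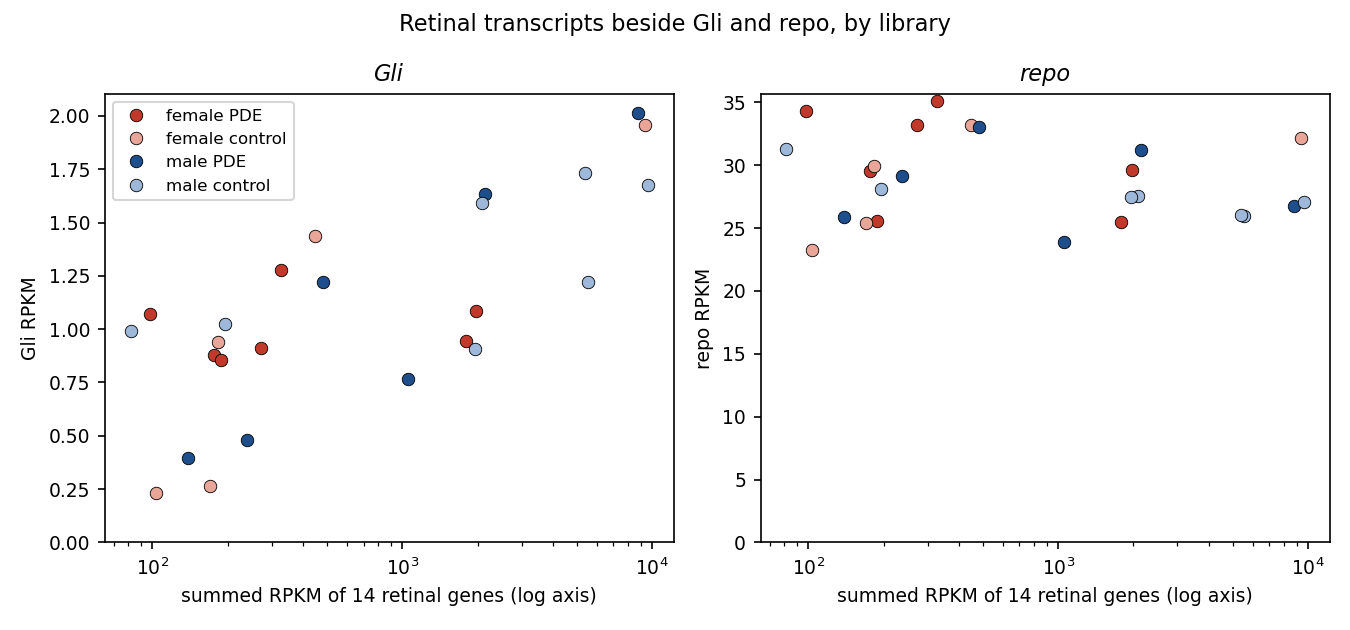
RPKM of Gli and repo (y axes, linear from 0) against the summed RPKM of 14 retinal genes (x axis, log scale) in 25 libraries, coloured by group. Gli is at 1.22 to 2.02 RPKM in the 5 retina-rich libraries at the right, whereas repo shows no such gradient.

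Haemocyte genes, the markers of the fly's blood cells, went most closely with repo, loco and wrapper. The summed level of 9 such genes (Hml, NimC1, He, srp, Pxn, eater, Ppn, Col4a1 and vkg) correlated with wrapper at r = 0.84 (rho = 0.84, permutation p = 1.0e-05, the smallest possible, adjusted p = 0.00048). For repo r was 0.83 (rho = 0.84, permutation p = 3.0e-05, adjusted p = 0.00072) and for loco 0.78 (rho = 0.80, permutation p = 0.0001, adjusted p = 0.00106). Without the 2 farthest libraries these values were 0.80, 0.81 and 0.76. For nrv2 r was 0.67 (rho = 0.73, permutation p = 0.00018, adjusted p = 0.00144), and for Eaat1 it was 0.57 (rho = 0.53, permutation p = 0.00314, adjusted p = 0.0167), with 0.68 and 0.49 when the farthest libraries were left out. For Gs2 it was 0.16 (rho = 0.16, permutation p = 0.473) and for Gat 0.04 (rho = 0.05, permutation p = 0.864).

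Col4a1 and vkg encode the collagen of basement membranes, and with Pxn they make up most of the sum. In a list without these 3 genes, chosen after their values were seen, r was 0.84 for wrapper (adjusted p = 0.00106), 0.71 for loco (adjusted p = 0.0096) and 0.68 for repo (adjusted p = 0.0116), each by permutation. It was 0.43 for nrv2 (adjusted p = 0.1) and 0.31 for Eaat1 (adjusted p = 0.328). The 9-gene sum was 40.9 to 77.6 RPKM after female PDE and 28.2 to 51.4 RPKM in control females, 38.0 to 64.3 RPKM after male PDE and 31.7 to 41.4 RPKM in control males. None of the 9 genes was at 0 in all libraries, and He was at 0 in 2. Of the 7 haemocyte genes tested, 0 were called after PDE in either sex or the average, and all 7 average changes were positive with a median of 0.32. At an unadjusted p under 0.05 stood 1 of them in females and 3 in males, and 4 for the average. The fat body genes, which include the yolk protein genes, went the other way, with 4 of 5 average changes negative, a median of -1.07, 4 at an unadjusted p under 0.05 (1 of 7 with voom) and 0 called. The sum of their 8 listed genes was 179 to 2270 RPKM after female PDE and 96.0 to 5580 RPKM in control females, 38.8 to 68.0 RPKM after male PDE and 42.3 to 105 RPKM in control males. The part of fat body RNA in the values was not tested. Nor was the part of blood cells in the values of the glial genes.

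In the 9 wider glial lists limma called 0 genes after PDE in either sex, in the average or for the difference of the sexes. At an unadjusted p under 0.05 in the average, where 6.41% of all genes stood, there were 5 of 10 astrocyte and neuropil genes, 3 of 4 cortex glia genes, 2 of 5 barrier transport genes and 2 of 20 septate junction genes. There were also 2 of 7 transmitter recycling genes, 2 of 6 engulfment genes, 1 of 4 pump genes and 0 of the genes of glial fate and of moody signalling. With voom the counts were the same except for 3 septate junction genes, and 0 genes were called. These lists share genes with the members. Among 4 measured genes of cortex glia, all 4 average changes were positive. The 3 with the smallest p were Cyp4g15, a cytochrome P450 gene, at 0.30 (SE 0.10, adjusted p = 0.376), wrapper, and the calcium exchanger gene zyd at 0.13 (SE 0.06, adjusted p = 0.765). In the list of astrocyte and neuropil genes 8 of 10 average changes were positive with a median of 0.16. Beside nrv2, Gs2 and Eaat1, the smallest p-values were those of Obp44a, encoding a small carrier protein, at 0.50 (SE 0.21, adjusted p = 0.635) and of the FGF receptor gene htl at 0.16 (SE 0.06, adjusted p = 0.635).

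Barrier transport genes leaned the same way without a call. The ABC transporter gene Mdr65 had an average change of 0.36 (SE 0.16, adjusted p = 0.661), MFS3 0.23 (SE 0.09, adjusted p = 0.627) and Mdr49 0.30 (SE 0.19, adjusted p = 0.938), and 4 of the 5 measured genes were positive. Septate junction genes did not share that sign, since 5 of 20 were positive with a median of -0.01. Their smallest p-values were those of nrv2 and of cora, a cytoskeletal linker gene, at 0.08 (SE 0.03, adjusted p = 0.584), followed by the claudin gene kune at -0.08 (SE 0.04, adjusted p = 0.843).

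Other subunits of the sodium pump stayed near 0, with -0.003 for the alpha subunit gene Atpalpha (SE 0.04), -0.03 for nrv3 (SE 0.03) and -0.03 for nrv1 (SE 0.24), each at an adjusted p over 0.9. Of the transmitter recycling genes outside the members, Gdh had an average change of -0.07 (SE 0.06, adjusted p = 0.999). In moody signalling, the G protein genes Galphai and Galphao had average changes of 0.03 (SE 0.05) and 0.02 (SE 0.03), each at an adjusted p of 0.999. Among genes of glial fate, 3 of 6 passed the minimum, repo, loco and ttk, and ttk changed by -0.02 (SE 0.11, adjusted p = 0.999). The engulfment list, by which glia clear debris, had 5 of 6 positive average changes, with the metalloproteinase gene Mmp1 at 0.38 (SE 0.11, unadjusted p = 0.00181, adjusted p = 0.225) and the adaptor gene ced-6 at 0.13 (SE 0.06, adjusted p = 0.634).

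Between males and females 7 genes of these lists were called, none of them a member, in a contrast that called 12.1% of all genes. Higher in males were Atpalpha, by 0.12 (SE 0.04, adjusted p = 0.0300), and the glutamate dehydrogenase gene Gdh, by 0.20 (SE 0.06, adjusted p = 0.0487). Lower in males were the barrier transporter gene pippin at -0.90 (SE 0.21, adjusted p = 0.00410), the engulfment adaptor gene Crk at -0.21 (SE 0.05, adjusted p = 0.00293) and the G protein subunit gene Gbeta13F at -0.12 (SE 0.03, adjusted p = 0.00410). The septate junction genes pck (-0.18, SE 0.05, adjusted p = 0.0262) and Nrg (-0.08, SE 0.03, adjusted p = 0.0378) were also lower in males. By list these were 3 of 20 septate junction genes, 1 of 5 barrier transport genes, 1 of 6 in moody signalling, 1 of 7 in transmitter recycling, 1 of 4 pump genes and 1 of 6 engulfment genes, with Atpalpha in both the pump and the junction list. Among genes of glial fate, astrocytes and cortex glia 0 were called.

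For each member except Gat, the gene closest to it in pattern was closer than any other member was. Likeness was Pearson's r of group-centred log2(RPKM + 1) over 25 libraries, given as a description, and the highest values among all other tested genes are high by their choice. UDP-glycosyltransferase genes headed the lists of 3 members, with Ugt302K1 for wrapper (r = 0.95), Ugt35B1 for nrv2 (0.94) and Ugt49B1 for repo (0.92). Second places were held by kumpel for wrapper (0.93), the P450 gene Cyp12e1 for nrv2 (0.87) and the GABA transaminase gene Gabat for repo (0.89). Sdr and CG10550 led for loco (both 0.89), and Vinc (0.91) and CG17121 (0.89) for Gli. Gs2 and Gat shared the tetraspanin gene Tsp5D, at 0.90 and 0.79, and Gs2 and Eaat1 shared CG4409, at 0.85 and 0.83. The remaining places went to Amph for Gat (0.81) and CG9467 for Eaat1 (0.82). To the mean of the 8 members, Hexo2 (0.95), the glutathione transferase gene GstE2 (0.94), the ceramidase gene CDase (0.91), Cyp4s3 (0.91) and the enolase gene Eno (0.90) were closest.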

How the data were processed

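The authors deposited 1 table of RPKM values for 16060 genes in 25 libraries of brain RNA. Per the labels' protocols, a Maxwell kit gave the RNA and a SMART-Seq mRNA kit the libraries. Per the submitters' processing notes, STAR and the build dm6 were used. Not given in the sources used here are the read counter, its strand setting and the annotation. The treated samples' titles say PDT where the series design says PDE, and both were read as 1 treatment. Groups and replicate numbers came from the labels, and 0 columns were left unassigned. Symbols came from Ensembl BDGP6.54, which names 15997 of the 16060 identifiers.

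Low RPKM values of a gene lie on even steps of 1 read each, from which reads and library totals were recovered. The length behind the RPKM was the genomic span with introns for 12250 of 13580 genes, and 99.2% of values under 200 reads were whole within 0.01. Lengths were accepted only where such values came out nearly whole, so this share is not an independent check of them. Recovered reads summed to 101.72 to 102.73% of the totals. The lengths of some genes may be inexact, but the source of this excess was not tested. With the span as length, the reads of all 8 measured members were whole within 0.01 in each library.

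Values were analysed as log2(RPKM + 1) for genes reaching 1 RPKM in 5 or more libraries, with limma 3.58.1 in R 4.3.3, 1 coefficient per group and an intensity trend. An adjusted p under 0.05 was a call. The genes and lists were chosen with earlier results of these data known. All 10 members were named. Of each further list, genes called in any contrast were named, and otherwise up to 3 with the smallest p in the average. For likeness, the 2 closest genes to each member and the 5 closest to their mean were named. Genes named beyond this rule, such as those of the neuronal and haemocyte lists and those of small p in lists with calls between the sexes only, were chosen after their values were seen. The fit and the correlations were tested on simulated data. Python 3.11.15 with numpy 2.4.6, pandas 2.3.3 and scipy 1.17.1 was used for the correlations. Alternatives were other pseudocounts, no filter, median-ratio size factors, quantile normalization, array weights, each sex alone, a replicate block, a retinal covariate, log2 of reads scaled to the library total, voom on recovered reads, and leaving out each library or the 5 retina-rich ones.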

Additional observations from a re-analysis of the deposited data

Results flagged for a closer look

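Among 32 combinations of a member and a group, 2 libraries stood apart by Dixon's test, which chance alone would do in about 1 in 20 such groups. repo was at 31.3 RPKM in control male 3, whereas the other 6 control males lay between 26.0 and 28.1 RPKM. Eaat1 was at 83.4 RPKM in control female 1, whereas the other 4 control females lay between 101.0 and 102.3 RPKM. Control female 1 was also the lowest of its group for wrapper, at 24.9 RPKM, which was not far enough from the next library to be counted.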

How the results depend on the processing

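Of 1456 recomputed member changes, 1401 kept their direction and their side of the threshold, 9 passed it newly (all males against females) and 46 changed sign, all of them uncalled. No member passed in a PDE contrast under any alternative run (smallest adjusted p = 0.247, nrv2, average, quantile normalization). In females repo was -0.0095 and Gli -0.1248 with array weights, and leaving out 1 library gave Gat -0.0066 to 0.1434 and Gli -0.0367 to 0.2799. In males repo was -0.0053 without the retina-rich libraries and -0.0166 to 0.073 leaving out 1 library. The average of Gli was 0.0423 without the retina-rich libraries, 0.0181 with the retinal covariate and -0.1132 to 0.0451 leaving out 1 library. For the male minus the female change, array weights gave repo 0.0381, nrv2 0.0586, wrapper 0.0788 and Gli 0.0109. The retina-rich libraries left out gave Eaat1 -0.073 and Gs2 -0.0852. Leaving out 1 library gave repo -0.1035 to 0.0205, Eaat1 -0.0296 to 0.0817, Gs2 -0.0385 to 0.064, nrv2 -0.0732 to 0.0376 and wrapper -0.2397 to 0.1297. Between the sexes Gli was -0.0108 with the retinal covariate. The cause of these shifts was not tested.

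Members called between the sexes numbered 1 with size factors, quantile normalization or voom, and 0 to 1 leaving out 1 library. All genes called in females numbered 3 with females alone in the fit. In males they numbered 25 with array weights, 6 without the retina-rich libraries and 8 to 17 leaving out 1 library, with 8 without PDE male 3. For the difference of the sexes they numbered 0 to 1, with 1 without control female 4.

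Deviations of same-numbered libraries from their group means had r of -0.69 to 0.75 over 34 pairs (median 0.08). Differently numbered libraries of different groups had r of -0.70 to 0.76 over 199 pairs (median -0.03). With so wide a spread, these values cannot show whether the numbers mark pairs or batches. With the replicate number as a block, 2 members were called between the sexes (wrapper and Gs2), and the male minus the female change was -0.0235 for Eaat1, -0.0497 for Gs2 and 0.0077 for nrv2. In the average of PDE minus control, 6 members in place of 4 then had an unadjusted p under 0.05, with 0 called. Depth limits Gli most, with 16 reads in its lowest library.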
